A study of Mus musculus with 12 samples.

Results

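The enzymes that make, salvage and break down deoxynucleotides in the cytosol were followed in *Tk2*-/- and *Tk2*+/+ mice through 10 genes: *Rrm1*, *Rrm2*, *Tk1*, *Dck*, *Dtymk*, *Nt5c1a*, *Nt5c3*, *Nt5e*, *Cda* and *Dpyd*. Each gene was read from probe sets that carry its symbol alone, with the brightest used where there were several, and 10 of 10 were found among 18820 genes tested on 35556 probe sets. Thymidine kinase 2, the product of *Tk2*, is the mitochondrial kinase of thymidine and deoxycytidine. Hind limb skeletal muscle and heart were taken from C57BL/6 mice at 11 days of age, as *Tk2*-/- muscle, *Tk2*+/+ muscle, *Tk2*-/- heart and *Tk2*+/+ heart. Each group had 3 arrays from 3 different mice, the pups came from matings of heterozygotes, and the knockout is of the whole body and not limited to muscle. The methods describe both tissues as taken from 3 mice of a genotype, so that muscle and heart arrays share animals. Which arrays share a mouse is not given by the sample labels. Of each gene the arrays gave a signal on a linear scale, which has no absolute unit and is compared here only within a gene.

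A cell that divides makes its deoxynucleotides mainly through ribonucleotide reductase, whose large subunit is RRM1 and whose S phase small subunit is RRM2. Salvage of deoxynucleosides starts with thymidine kinase 1 (TK1) or deoxycytidine kinase (DCK), and thymidylate kinase (DTYMK) carries thymidylate from either route one step further. The 5′-nucleotidases NT5C1A and NT5C3 in the cytosol and NT5E (CD73) on the cell surface remove phosphate from nucleotides, cytidine deaminase (CDA) turns cytidine and deoxycytidine into uridine and deoxyuridine, and dihydropyrimidine dehydrogenase (DPYD) opens the breakdown of uracil and thymine. *Tk1*, *Rrm2* and *Dtymk* are known for expression tied to S phase, and postmitotic muscle fibres hold little TK1.

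The stretch before the start of transcription is shown for *Rrm1*, *Rrm2* and *Dtymk*, since these were the promoters of the 10 in which a CCAAT box was found and since 1 of the 2 reductase subunits was lower in skeletal muscle while the other did not pass. Sequences are from RefSeq on GRCm38.p6 (all 10 genes matched), 250 bases each, 5′ to 3′ on the gene's strand, with CCAAT or its reverse complement ATTGG in capitals. They lie at chr7:102441445-102441694 (plus strand), chr12:24708004-24708253 (plus strand) and chr1:93801935-93802184 (minus strand), in that order. The *Dtymk* gene is annotated up to position 93802068. The start used for *Dtymk* therefore lies inside the annotated gene, as does part of its stretch with the ATTGG.
Rrm1: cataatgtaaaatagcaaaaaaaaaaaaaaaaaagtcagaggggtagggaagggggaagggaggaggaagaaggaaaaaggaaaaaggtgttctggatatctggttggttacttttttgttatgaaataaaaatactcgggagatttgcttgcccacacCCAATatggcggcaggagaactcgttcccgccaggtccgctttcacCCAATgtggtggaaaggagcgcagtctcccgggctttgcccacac
Rrm2: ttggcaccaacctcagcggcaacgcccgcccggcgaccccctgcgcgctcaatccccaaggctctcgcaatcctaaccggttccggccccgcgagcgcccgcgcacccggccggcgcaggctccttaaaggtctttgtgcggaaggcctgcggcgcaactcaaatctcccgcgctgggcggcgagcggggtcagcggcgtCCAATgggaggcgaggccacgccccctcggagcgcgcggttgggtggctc
Dtymk: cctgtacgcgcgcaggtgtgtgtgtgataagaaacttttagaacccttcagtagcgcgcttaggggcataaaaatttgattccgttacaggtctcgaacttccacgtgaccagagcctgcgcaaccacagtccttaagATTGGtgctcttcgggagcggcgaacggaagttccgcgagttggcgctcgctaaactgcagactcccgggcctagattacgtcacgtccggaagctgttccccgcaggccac
*Rrm1* had a CCAAT box starting 91 bases and another 45 bases before the start, *Rrm2* had 1 at 50 bases, and *Dtymk* had 1 on the opposite strand at 112 bases. CCAAT was found on either strand in 37.4% of 32851 promoter windows of 300 bases (250 before and 50 from the start on). The E2F-type letters TTTGGCGC, TTTCCCGC, TTTGCCGC and TTTCGCGC were found in 2.26% of all windows and in 0 of the 10 here. The GC box GGGCGG was found in 8 of the 10 and in 35.7% of all windows, and the CHR-type letters TTTGAA or TTCGAA in *Dck* alone and in 19.2% of all windows. Both strands were searched, and none of these motifs overlapped a CCAAT box. By the annotated extent of the genes, the windows of *Nt5c1a*, *Nt5c3* and *Cda* lie wholly inside the gene. The starts used for *Tk1*, *Dtymk* and *Dpyd* also lie inside it. The counts therefore hold for the starts used and not for other starts of these genes. These are matches of letters and no measure of binding.

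Array level differences touch every heart value. The mean signal of an array was 146.7 to 168.4 in *Tk2*-/- heart and 227.4 to 242.6 in *Tk2*+/+ heart, against 224.9 to 245.9 in *Tk2*-/- muscle and 201.8 to 252.4 in *Tk2*+/+ muscle. Over all genes, log2 fold changes had a median of -0.28 in heart, against -0.02 in muscle. Heart values are therefore given as deposited and again after quantile normalization within the tissue, which gives all arrays of a tissue the same distribution. Less RNA per cell and fewer cells of a type cannot be told apart in such bulk samples. *Tk2* itself had signals of 30.07, 46.25 and 31.67 in *Tk2*-/- heart and 70.18, 73.56 and 81.80 in *Tk2*+/+ heart, a difference of -0.82 on the log2 scale (adjusted p = 7.62e-05) and of -0.47 after quantile normalization (adjusted p = 0.0109). In muscle it had 64.67, 44.06 and 48.69 in *Tk2*-/- mice and 62.92, 68.49 and 63.10 in *Tk2*+/+ mice, and the difference of -0.25 did not pass (adjusted p = 0.208). Whether these probes fall inside the part of *Tk2* that was removed was not analysed here, so that its signals are no check of the genotype labels. In *Tk2*+/+ mice, 9 of 10 markers of skeletal muscle fibres were higher in muscle than in heart and 8 of 8 markers of cardiomyocytes were lower. Of all genes, 30.6% were higher and 18.4% lower in this comparison.

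In skeletal muscle of *Tk2*-/- mice, 5 of the 10 genes had a lower signal than in *Tk2*+/+ mice (*Dck*, *Rrm1*, *Dtymk*, *Nt5c1a* and *Cda*), 3 had a higher signal (*Nt5c3*, *Nt5e* and *Dpyd*), and *Rrm2* and *Tk1* did not pass the threshold, an adjusted p of 0.05. Of all genes tested, 10.9% were called lower and 11.6% higher in this comparison. In heart the same 3 genes were higher, among 1.99% of all genes, and the other 7 were lower, among 49.0% of all genes, so that the share of lower calls is to be read against a background of about that size. After quantile normalization within the tissue, 5 genes were lower and 3 higher in muscle (14.8% and 13.8% of all genes), and 6 were lower and 3 higher in heart (17.9% and 13.9% of all genes). *Tk1* was the gene whose call in heart was lost. Without regard to a test, the 3 *Tk2*-/- arrays lay wholly below the 3 *Tk2*+/+ arrays for 6 of the 10 genes in muscle and wholly above for 3, where 18.8% and 16.9% of all genes did so. In heart these counts were 7 below and 3 above, against 53.3% and 3.16% of all genes. The median log2 fold change of the 10 genes was -0.53 in muscle and -1.17 in heart (-0.47 and -0.73 after quantile normalization).

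**Figure D1:**
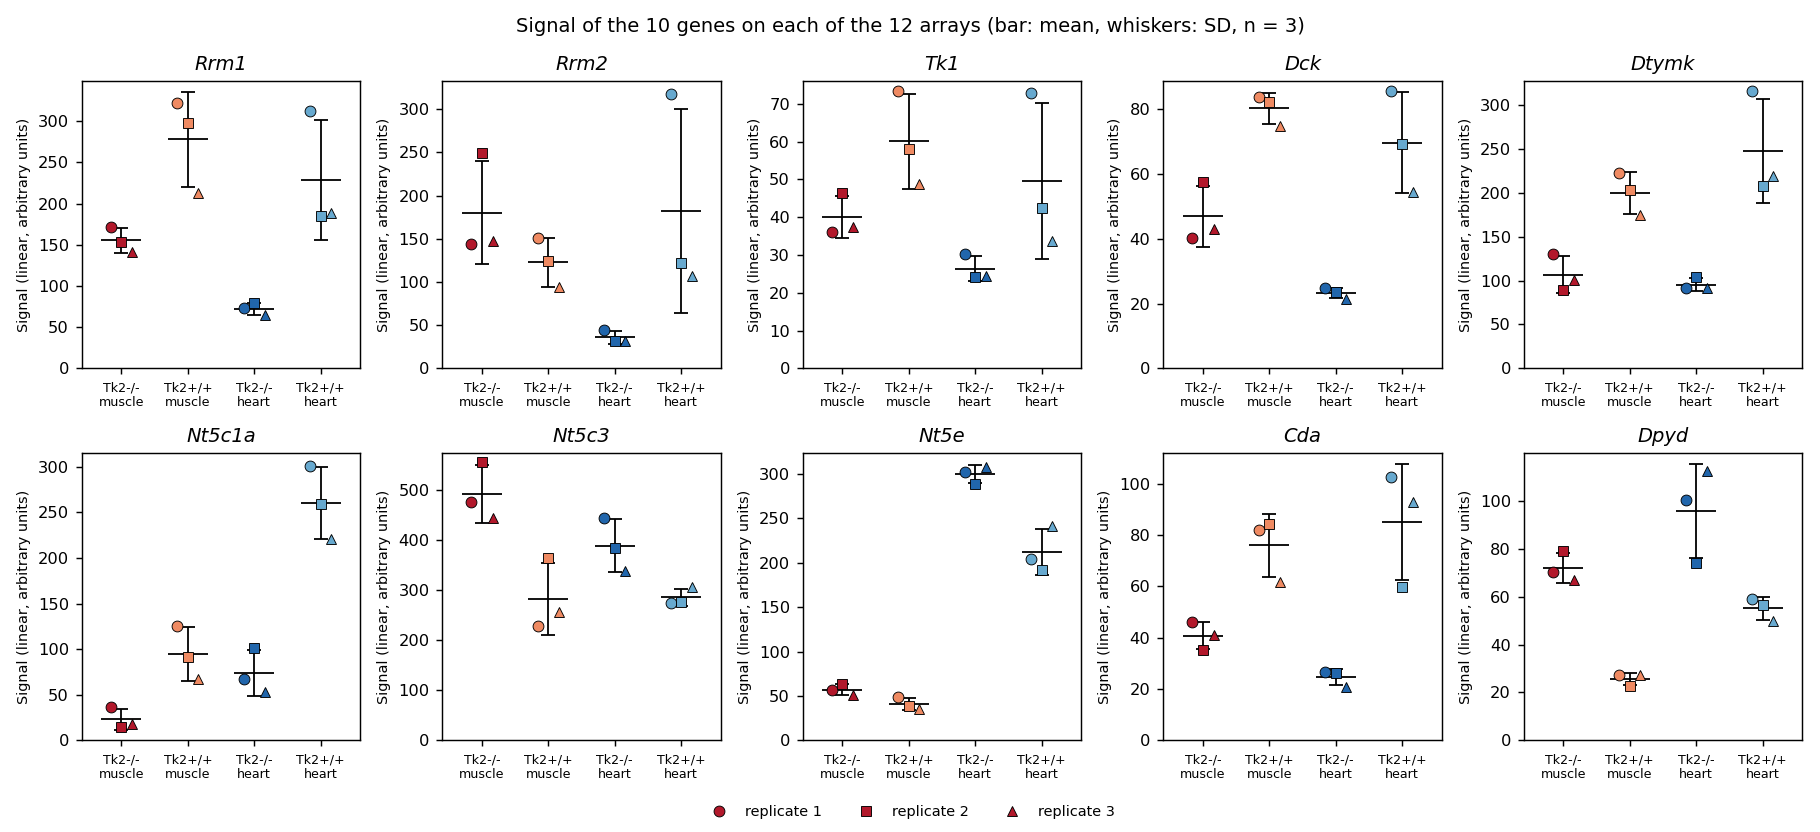
Signal of each of the 10 genes (vertical axis, linear and arbitrary units, from 0) on the 12 arrays in *Tk2*-/- muscle, *Tk2*+/+ muscle, *Tk2*-/- heart and *Tk2*+/+ heart, with a symbol per replicate, the mean as a bar and the SD as whiskers (n = 3). *Tk2*-/- arrays lie below *Tk2*+/+ arrays in both tissues for *Rrm1*, *Tk1*, *Dck*, *Dtymk*, *Nt5c1a* and *Cda* and above them for *Nt5c3*, *Nt5e* and *Dpyd*, while *Rrm2* overlaps in muscle and is lower in *Tk2*-/- heart.

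*Rrm1*, the large and catalytic subunit of ribonucleotide reductase, was lower in both tissues. In skeletal muscle its signal was 171.26, 153.06 and 141.56 in *Tk2*-/- mice and 322.46, 297.81 and 213.05 in *Tk2*+/+ mice. In heart it was 72.96, 79.12 and 64.35 in *Tk2*-/- mice and 312.75, 184.81 and 188.86 in *Tk2*+/+ mice. The genotypes did not overlap in either tissue, and the highest *Tk2*+/+ heart array was replicate 1. The log2 fold change, taken on signal + 16 throughout, was -0.76 ± 0.18 (SE) in muscle (adjusted p = 0.00566) and -1.44 ± 0.18 in heart (adjusted p = 1.04e-05). The heart value was -0.86 after quantile normalization (adjusted p = 0.000815).

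*Rrm2*, the small subunit made in S phase, was not called in skeletal muscle and was lower in heart. Its signal in skeletal muscle was 143.73, 248.85 and 147.78 in *Tk2*-/- mice and 150.35, 124.38 and 93.83 in *Tk2*+/+ mice. Replicate 2 of *Tk2*-/- muscle stood above all other muscle arrays, and the other 2 *Tk2*-/- arrays lay inside the range of the *Tk2*+/+ arrays. On the log2 scale the fold change was 0.48, with a 95% interval of -0.16 to 1.11 (adjusted p = 0.314), and 0.24 without that replicate (adjusted p = 0.741). These values come from 1 probe set, and *Rrm2* has no other with its symbol alone to check them. By the study's own account *Rrm2* was down-regulated in knockout skeletal muscle and heart, with real-time qPCR in support. A lower *Rrm2* in skeletal muscle was not found here, and the cause of this difference was not tested. In heart the signal was 44.69, 31.81 and 31.30 in *Tk2*-/- mice and 318.02, 121.54 and 107.35 in *Tk2*+/+ mice. All 3 *Tk2*-/- heart arrays were thus below the lowest *Tk2*+/+ heart array, and *Tk2*+/+ replicate 1 was far above its group. In heart the fold change was -1.79 ± 0.30 on the log2 scale (adjusted p = 0.000117), -1.37 after quantile normalization (adjusted p = 0.00307) and -1.34 without *Tk2*+/+ replicate 1 (adjusted p = 0.000159). The genotype effect in muscle minus that in heart was 2.27 ± 0.42 (adjusted p = 0.00066), higher than for 99.8% of all genes, and 1.85 after quantile normalization (adjusted p = 0.0137).

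*Rrm2b*, which encodes the p53-inducible small subunit that serves cells outside S phase, is set beside them. The study reported a significant increase of *Rrm2b* in *Tk2*-/- skeletal muscle by real-time qPCR, which is another measure than the arrays. On the arrays its signal in muscle was 71.73, 45.85 and 50.85 in *Tk2*-/- mice and 55.10, 64.73 and 49.61 in *Tk2*+/+ mice, and the arrays overlapped. Their difference was -0.02 on the log2 scale, with a 95% interval of -0.36 to 0.32 (adjusted p = 0.962). In heart *Rrm2b* had 56.98, 72.09 and 41.03 in *Tk2*-/- mice and 100.81, 81.81 and 102.45 in *Tk2*+/+ mice, which gave -0.63 on the log2 scale (adjusted p = 0.00351), a value that was -0.15 after quantile normalization and did not pass there (adjusted p = 0.453).

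*Rrm2* was set against 16 measured genes of S phase and mitosis, of which 13 fell in *Tk2*-/- muscle and none rose, with a median log2 fold change of -0.94. Of all genes, 10.9% were lower and 11.6% higher there. *Ccna2*, which encodes cyclin A2, averaged 26.1 ± 20.3 in *Tk2*-/- muscle and 231.6 ± 76.9 in *Tk2*+/+ muscle (SD, n = 3 each), a log2 fold change of -2.61 (adjusted p = 3.41e-05). *Top2a*, the topoisomerase of dividing cells, fell by 2.27, *Mki67*, which encodes the Ki-67 antigen, by 2.21 and *Cdk1*, the mitotic kinase, by 1.87 on the log2 scale. *Pcna*, the clamp of the replicative polymerases, was at 542.0 ± 76.8 in *Tk2*-/- muscle and 500.8 ± 77.6 in *Tk2*+/+ muscle, and with the helicase subunits *Mcm3* and *Mcm4* it made up the 3 that did not pass. In heart 16 of 16 were lower, with a median of -1.45, and 16 of 16 stayed lower after quantile normalization, with a median of -1.18. Of all genes, 49.0% and 17.9% were lower in heart before and after that normalization. Log2 fold changes in heart were -3.16 for *Ccna2*, -3.03 for *Mki67*, -2.90 for *Top2a* and -2.49 for *Cdk1* as deposited, and -2.86, -2.74, -2.65 and -2.22 after quantile normalization. The means of 3 of the 16 in *Tk2*-/- muscle and of 7 in *Tk2*-/- heart were under 16, so that these fold changes are understated. The summed signal of the 16 genes was 928.5, 1337.5 and 1001.6 in *Tk2*-/- muscle and 2726.8, 2125.9 and 1623.7 in *Tk2*+/+ muscle, so that the array with the highest *Rrm2* signal among *Tk2*-/- muscles also had the highest sum of that group but lay below every *Tk2*+/+ array. In heart the sums were 681.9, 696.0 and 571.5 in *Tk2*-/- mice and 3446.5, 2124.1 and 1870.9 in *Tk2*+/+ mice, the highest on the *Tk2*+/+ array with the highest *Rrm1* and *Rrm2*. In the plot of *Rrm2* against these sums, the 3 *Tk2*-/- muscle arrays combine low sums with *Rrm2* signals within or above the range of *Tk2*+/+ muscle.

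**Figure D2:**
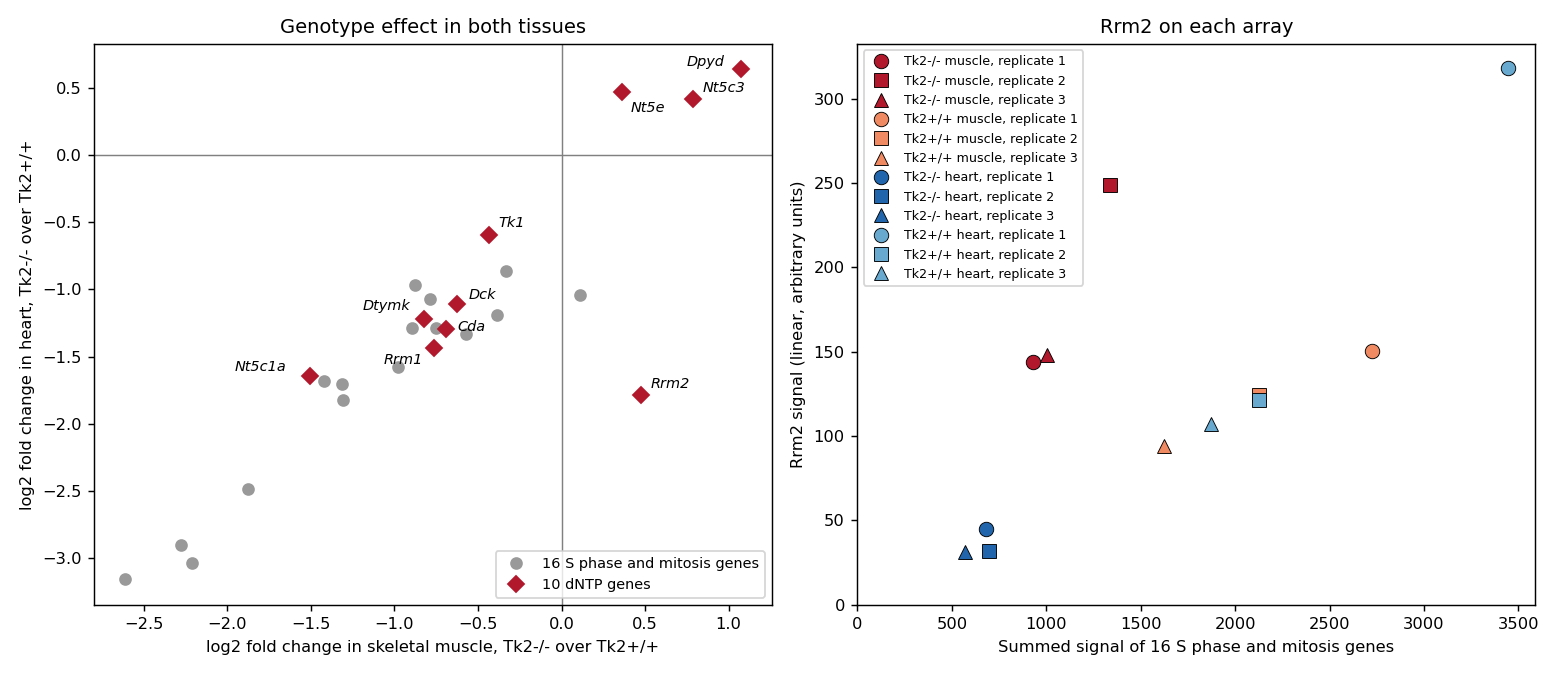
Left, log2 fold change of *Tk2*-/- over *Tk2*+/+ in muscle (horizontal axis) and in heart (vertical axis) for the 10 genes (red diamonds, named) and 16 S phase and mitosis genes (grey circles). Right, *Rrm2* signal against the summed signal of those 16 genes on each of the 12 arrays, where the 3 *Tk2*-/- muscle arrays have sums of 928.5 to 1337.5 with *Rrm2* at 143.73 to 248.85, and the 3 *Tk2*-/- heart arrays have sums of 571.5 to 696.0 with *Rrm2* at 31.30 to 44.69.

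Genes on the lists of cell type markers moved in these tissues as well. Of all genes, 10.9% were called lower and 11.6% higher in *Tk2*-/- muscle as deposited. In muscle 3 of 5 markers of satellite cells and myoblasts fell (*Pax7*, *Myod1* and *Myog*), and the summed signal of the list was 390.2 to 705.4 in *Tk2*-/- mice and 711.4 to 1126.9 in *Tk2*+/+ mice. Of 7 fibroblast markers 4 fell and 1 rose, with sums of 6992.6 to 8653.6 in *Tk2*-/- muscle and 11921.0 to 13673.2 in *Tk2*+/+ muscle. In heart 7 of 7 fibroblast, 7 of 7 leucocyte and 6 of 6 endothelial markers were lower, and 4, 6 and 4 of them were lower after quantile normalization. After it 1 fibroblast marker was called higher. Of all genes, 49.0% were lower in heart as deposited, and 17.9% were lower and 13.9% higher after that normalization. Leucocyte sums were 550.8 to 655.8 in *Tk2*-/- heart and 1499.7 to 1878.7 in *Tk2*+/+ heart. Adipocyte markers rose in muscle for 3 of 4 (*Adipoq*, *Plin1* and *Cidec*) and fell for *Lep*, with sums of 697.3 to 1456.7 in *Tk2*-/- mice and 282.7 to 558.6 in *Tk2*+/+ mice. Of 8 cardiomyocyte markers 2 fell (*Tnnt2* and *Actc1*) and 1 rose in muscle, with sums of 3868.6 to 4563.8 in *Tk2*-/- mice and 8266.5 to 9855.0 in *Tk2*+/+ mice. After quantile normalization 2 fell and 0 rose there, and 3 of the 8 had a mean under 16 in each muscle group. Of 10 skeletal muscle fibre markers 7 were lower in heart, and 6 after quantile normalization. Means under 16 were found for 3 of the 10 in *Tk2*-/- heart and for 1 in *Tk2*+/+ heart. No marker of the satellite cell, fibroblast, leucocyte and endothelial lists had a group mean under 16 in the tissue for which it is given here. The part of these cell types in the signals of the 10 genes was not tested.

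*Tk1*, the S phase thymidine kinase of the cytosol, was dim, and its calls changed with the processing. In muscle its signal was 36.18, 46.46 and 37.44 in *Tk2*-/- mice and 73.48, 58.00 and 48.73 in *Tk2*+/+ mice, without overlap, and the log2 fold change of -0.43 did not pass (adjusted p = 0.0988). In heart it was 30.14, 24.28 and 24.50 in *Tk2*-/- mice and 72.97, 42.41 and 33.60 in *Tk2*+/+ mice, which gave a fold change of -0.59 on the log2 scale (adjusted p = 0.00999). That call was lost after quantile normalization (-0.35, adjusted p = 0.0998) and without *Tk2*+/+ heart replicate 1 (-0.35, adjusted p = 0.0606). *Tk1* has another probe set of its own, which was slightly dimmer over the 12 arrays, with a mean of 37.6 against 44.0. It gave -0.26 in muscle (adjusted p = 0.354) and -0.70 in heart (adjusted p = 0.0026). A further probe set is shared with *Afmid* and was not used.

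*Dck*, the kinase of deoxycytidine and of purine deoxynucleosides, was lower in both tissues. Its signal was 40.11, 57.63 and 42.91 in *Tk2*-/- muscle and 83.65, 82.28 and 74.77 in *Tk2*+/+ muscle. In heart it was 24.74, 23.51 and 21.52 in *Tk2*-/- mice and 85.48, 69.28 and 54.28 in *Tk2*+/+ mice, where the *Tk2*-/- arrays lay close to the offset of 16, so that the fold change is understated. *Dck* thus changed by -0.62 ± 0.13 on the log2 scale in muscle (adjusted p = 0.00295) and -1.11 ± 0.13 in heart (adjusted p = 7.92e-06), and the heart value was -0.85 after quantile normalization (adjusted p = 0.000176).

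*Dtymk*, needed for every dTTP whether made anew or salvaged, was lower in both tissues. It had 130.40, 88.97 and 100.87 in *Tk2*-/- muscle and 222.36, 203.28 and 174.25 in *Tk2*+/+ muscle. In heart it had 91.01, 103.61 and 91.13 in *Tk2*-/- mice and 315.71, 207.55 and 218.94 in *Tk2*+/+ mice. The *Tk2*-/- arrays of both tissues were below all *Tk2*+/+ arrays. The log2 fold change was -0.82 ± 0.15 in muscle (adjusted p = 0.00117) and -1.22 ± 0.15 in heart (adjusted p = 1.18e-05), and the heart value was -0.61 after quantile normalization (adjusted p = 0.00275).

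*Nt5c1a*, the cytosolic 5′-nucleotidase of heart and skeletal muscle that turns AMP into adenosine, had the lowest log2 fold change of the 10 genes in muscle. Its signal there was 36.47, 14.99 and 18.06 in *Tk2*-/- mice and 125.51, 91.34 and 67.20 in *Tk2*+/+ mice. In heart it was 67.04, 101.34 and 53.43 in *Tk2*-/- mice and 300.48, 259.43 and 221.27 in *Tk2*+/+ mice. *Tk2*-/- arrays were below *Tk2*+/+ arrays in both tissues, without overlap. *Nt5c1a* changed by -1.50 ± 0.23 on the log2 scale in muscle (adjusted p = 0.000206), lower than for all but 0.55% of genes, and -1.64 ± 0.23 in heart (adjusted p = 2.46e-05), where quantile normalization gave -1.07 (adjusted p = 0.00193). Its effect in muscle minus that in heart was 0.14, with a 95% interval of -0.54 to 0.82 (adjusted p = 0.785).

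*Nt5c3*, the cytosolic nucleotidase of pyrimidine monophosphates, moved the other way. It had 475.58, 556.20 and 444.80 in *Tk2*-/- muscle and 227.75, 363.20 and 255.48 in *Tk2*+/+ muscle. In heart it had 443.62, 384.24 and 338.16 in *Tk2*-/- mice and 275.27, 275.32 and 305.36 in *Tk2*+/+ mice. *Tk2*-/- arrays were above *Tk2*+/+ arrays in both tissues, by the least between *Tk2*-/- heart replicate 3 and *Tk2*+/+ heart replicate 3. *Nt5c3* was higher by 0.79 ± 0.15 on the log2 scale in muscle (adjusted p = 0.0013) and 0.42 ± 0.15 in heart (adjusted p = 0.0279). The heart value became 1.10 after quantile normalization (adjusted p = 4.75e-05), while as deposited it missed the threshold when *Tk2*+/+ heart replicate 1 or 2 or *Tk2*-/- heart replicate 1 or 2 was left out (0.32 to 0.42, adjusted p = 0.0535 to 0.131). NT5C3 is known from red blood cells in humans, and 0 of 3 measured erythroid markers passed in muscle with limma (0 at an unadjusted p under 0.05), where their sums were 378.8 to 757.3 in *Tk2*-/- mice and 228.4 to 501.3 in *Tk2*+/+ mice. In heart these sums were 433.1 to 744.2 in *Tk2*-/- mice and 1147.9 to 1904.2 in *Tk2*+/+ mice as deposited, and 604.6 to 977.6 and 900.6 to 1515.8 after quantile normalization, where they overlapped. The part of red cells in *Nt5c3* was not tested.

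*Nt5e*, which encodes the surface enzyme CD73 that forms adenosine outside the cell, rose in both tissues and had its higher level in heart. It had 56.58, 63.47 and 51.51 in *Tk2*-/- muscle and 48.52, 39.30 and 35.51 in *Tk2*+/+ muscle. In heart it had 301.65, 287.99 and 307.93 in *Tk2*-/- mice and 203.51, 191.45 and 241.36 in *Tk2*+/+ mice. The muscle groups came within 3 units of each other and the heart groups were well apart. In muscle the increase on the log2 scale was 0.36 ± 0.11 (adjusted p = 0.0306), and that call was lost without *Tk2*+/+ muscle replicate 2 or 3 or without *Tk2*-/- muscle replicate 1 or 2 (0.29 to 0.37, adjusted p = 0.0653 to 0.143). In heart it was 0.47 ± 0.11 (adjusted p = 0.00212) and 1.14 after quantile normalization (adjusted p = 1.37e-05). The difference between the tissues, -0.11 as deposited (adjusted p = 0.648), was -0.73 after that normalization (adjusted p = 0.0087). CD73 is also carried by endothelial cells, and endothelial sums were 4254.0 to 4724.4 in *Tk2*-/- muscle and 4810.4 to 6008.9 in *Tk2*+/+ muscle, and 3416.7 to 4406.8 in *Tk2*-/- heart and 6856.6 to 8056.4 in *Tk2*+/+ heart. Of 6 endothelial markers 1 was called lower in muscle and 6 in heart, where 10.9% and 49.0% of all genes were. Their part in *Nt5e* was not tested.

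*Cda*, the cytidine deaminase, was lower in both tissues. Its signal was 45.95, 35.32 and 41.19 in *Tk2*-/- muscle and 81.79, 84.16 and 61.88 in *Tk2*+/+ muscle. In heart it was 26.51, 26.17 and 20.95 in *Tk2*-/- mice and 102.69, 59.58 and 92.74 in *Tk2*+/+ mice, with no overlap in either tissue. The log2 fold change was -0.69 ± 0.15 in muscle (adjusted p = 0.00409) and -1.29 ± 0.15 in heart (adjusted p = 7.76e-06), and the heart value was -0.98 after quantile normalization (adjusted p = 0.00011).

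*Dpyd*, the rate-limiting enzyme of pyrimidine breakdown, had the largest increase of the 10 genes in muscle. It had 70.31, 79.01 and 66.76 in *Tk2*-/- muscle and 27.33, 22.83 and 27.15 in *Tk2*+/+ muscle. In heart it had 100.18, 73.99 and 112.45 in *Tk2*-/- mice and 58.98, 56.38 and 49.76 in *Tk2*+/+ mice. All *Tk2*-/- arrays were above all *Tk2*+/+ arrays of the tissue. The increase was 1.07 ± 0.12 on the log2 scale in muscle (adjusted p = 1.97e-05) and 0.64 ± 0.12 in heart (adjusted p = 0.000404), where 99.4% of all genes had a lower one. Quantile normalization gave 1.12 in each tissue (adjusted p = 8.96e-05 in muscle and 0.000123 in heart). *Dpys*, *Upb1* and *Agxt2*, which act after *Dpyd* on the same pathway, had mean signals under 16 in all 4 groups and gave 0 calls of 3 in either tissue with limma (0 in muscle and 1 in heart at an unadjusted p under 0.05), so that nothing is read from them.

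**Figure D3:**
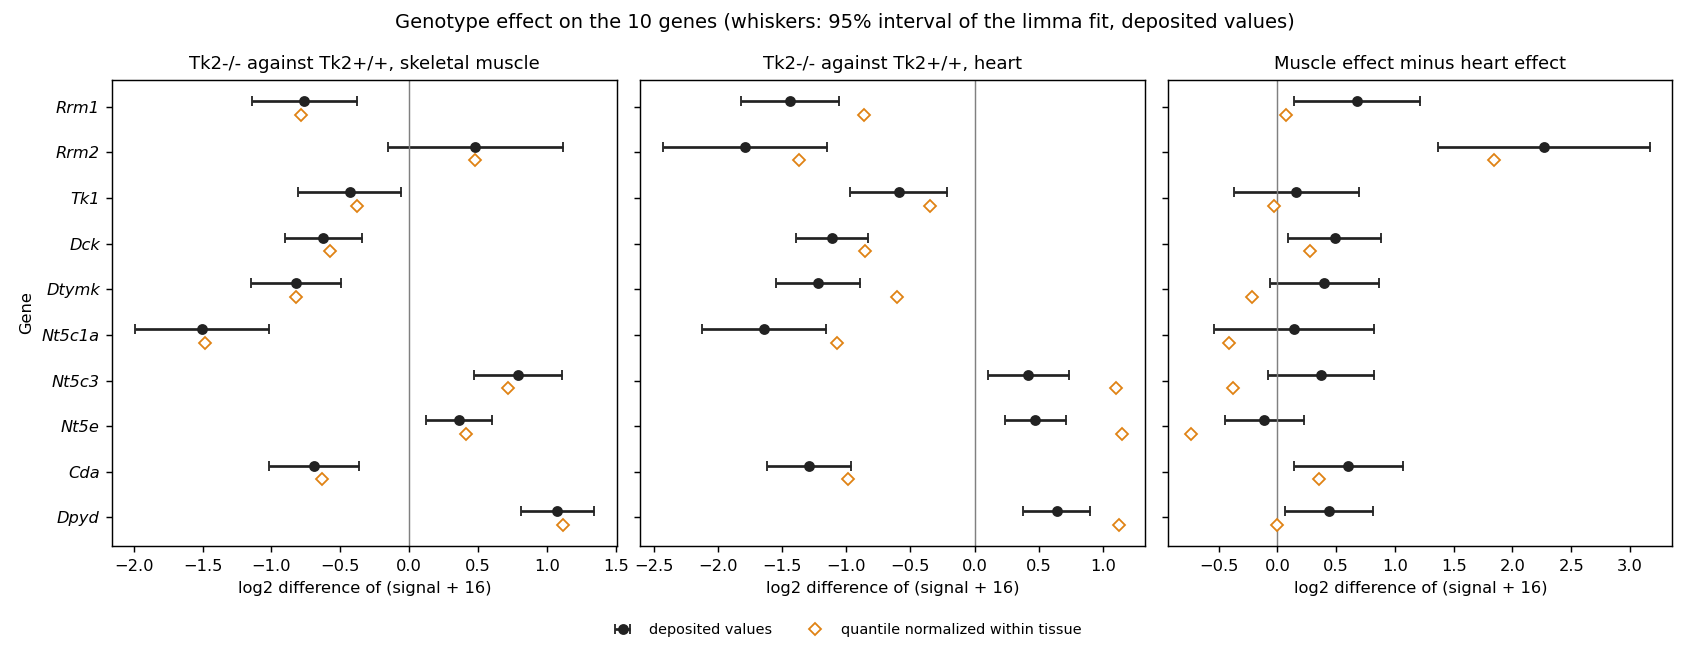
Genotype effect on each of the 10 genes (rows) in skeletal muscle, in heart, and the muscle effect minus the heart effect, as log2 differences of signal + 16 (horizontal axes), with deposited values as filled circles with 95% intervals and values after quantile normalization within the tissue as open diamonds. In muscle both values lie close together, in heart the quantile values are higher for all 10 genes, and *Rrm2* has the largest difference between the tissues (2.27 as deposited and 1.85 after normalization).

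The difference between the tissues passed the threshold as deposited for 4 of the 10 genes, each with the higher effect in muscle (*Dck*, *Rrm1*, *Rrm2* and *Cda*), where 41.3% of all genes did so, and for 0 with the higher effect in heart (0 at an unadjusted p under 0.05), where 1.39% of all genes did so. The median difference over all genes was 0.30. With each of the 12 arrays left out in turn, *Rrm2* passed in 12 fits, *Rrm1* and *Cda* in 6 each and *Dck* in 2, and *Nt5c3* (without *Tk2*+/+ muscle replicate 2) and *Dpyd* (without *Tk2*-/- heart replicate 3 or *Tk2*+/+ heart replicate 3) passed in 1 and 2 fits. After quantile normalization *Rrm2* kept its call, *Dck*, *Rrm1* and *Cda* lost theirs, and *Nt5e* gained one in the other direction. *Tk1*, *Dtymk*, *Nt5c1a* and *Nt5c3* did not pass either way, with 95% intervals as deposited of -0.37 to 0.69, -0.06 to 0.86, -0.54 to 0.82 and -0.08 to 0.82. *Dpyd* gave 0.44 as deposited, just short of the threshold (adjusted p = 0.0553), and -0.01 after normalization.

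Between the tissues themselves, 3 of the 10 genes had a higher level in heart in both genotypes. In *Tk2*-/- mice, 3 genes were lower in muscle than in heart (*Nt5c1a*, *Nt5e* and *Dpyd*, among 4.55% of all genes) and 4 were higher (*Dck*, *Rrm1*, *Rrm2* and *Cda*, among 59.5% of all genes). In *Tk2*+/+ mice the same 3 genes were lower in muscle (among 18.4% of all genes) and 0 were higher with limma (0 at an unadjusted p under 0.05, and 30.6% of all genes). *Nt5e* had the largest of these differences, with 95% intervals of -2.35 to -1.87 in *Tk2*-/- mice (adjusted p = 5.97e-10) and -2.24 to -1.76 in *Tk2*+/+ mice (adjusted p = 1.3e-09). *Nt5c1a* gave -1.20 in *Tk2*-/- mice (adjusted p = 0.000309) and -1.34 in *Tk2*+/+ mice (adjusted p = 0.000232), and *Dpyd* gave -0.33 (adjusted p = 0.0301) and -0.77 (adjusted p = 0.000153) in the same order. *Rrm2* was higher in muscle by 1.89 in *Tk2*-/- mice (adjusted p = 6.49e-05) and differed by -0.38 in *Tk2*+/+ mice, with a 95% interval of -1.02 to 0.25.

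**Figure D4:**
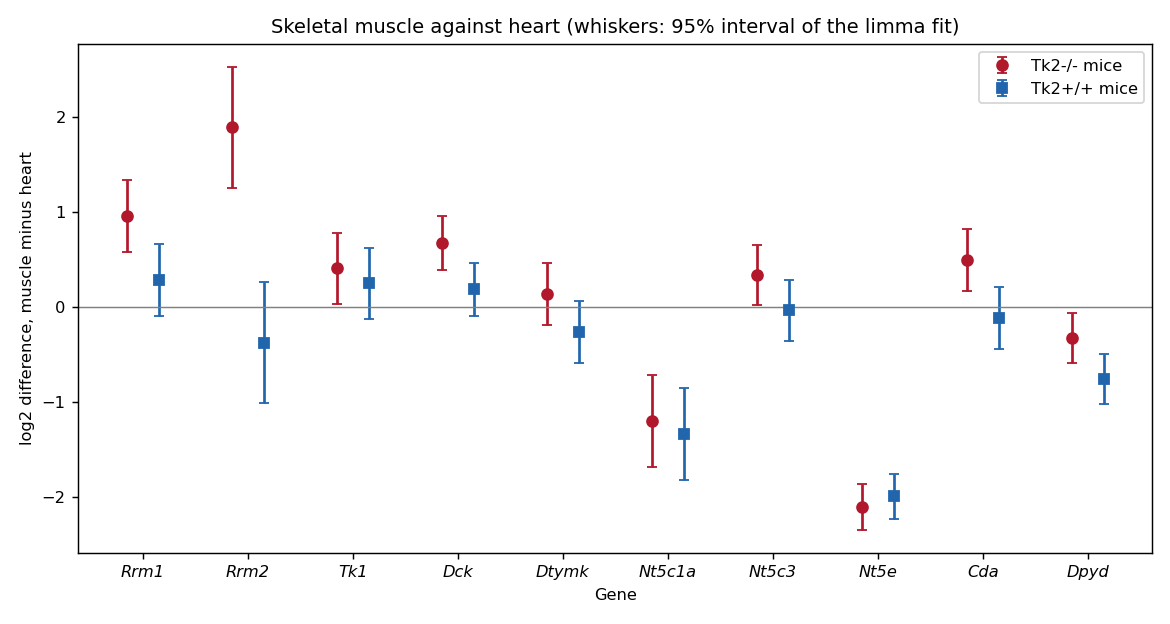
Difference between skeletal muscle and heart (vertical axis, log2 difference of signal + 16, muscle minus heart) for the 10 genes in *Tk2*-/- mice (red circles) and *Tk2*+/+ mice (blue squares), with 95% intervals of the fit. *Nt5c1a*, *Nt5e* and *Dpyd* lie below 0 in both genotypes, and *Rrm2* has the widest gap between the genotypes, at 1.89 in *Tk2*-/- mice and -0.38 in *Tk2*+/+ mice.

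The order of the 4 groups by mean signal differed from gene to gene. For *Dck*, *Rrm1* and *Tk1* it ran from *Tk2*-/- heart through *Tk2*-/- muscle and *Tk2*+/+ heart to *Tk2*+/+ muscle. *Tk2*+/+ muscle and *Tk2*+/+ heart were not told apart for any of these (adjusted p = 0.261, 0.198 and 0.26 in the order of the names). *Dtymk* and *Cda* ran from *Tk2*-/- heart through *Tk2*-/- muscle and *Tk2*+/+ muscle to *Tk2*+/+ heart, and for *Dtymk* the means of 106.7 in *Tk2*-/- muscle and 95.25 in *Tk2*-/- heart did not differ beyond their spread (adjusted p = 0.46). *Rrm2* was lowest in *Tk2*-/- heart at 35.9 ± 7.59, followed by *Tk2*+/+ muscle at 122.9 ± 28.3, while *Tk2*-/- muscle at 180.1 ± 59.6 and *Tk2*+/+ heart at 182.3 ± 117.7 had means about equal and wide spreads. *Nt5c1a* was lowest in *Tk2*-/- muscle at 23.2 ± 11.6 and highest in *Tk2*+/+ heart at 260.4 ± 39.6. *Nt5c3* had its highest mean in *Tk2*-/- muscle at 492.2 ± 57.5, with *Tk2*-/- heart at 388.7 ± 52.9, and the difference between these groups was not called. *Tk2*+/+ muscle was at 282.1 ± 71.6 and *Tk2*+/+ heart at 285.3 ± 17.4. *Nt5e* and *Dpyd* were highest in *Tk2*-/- heart, at 299.2 ± 10.2 and 95.5 ± 19.6, and lowest in *Tk2*+/+ muscle, at 41.1 ± 6.69 and 25.8 ± 2.55. These are means with SD over 3 arrays, as deposited. The *Tk2*-/- heart arrays had a lower mean signal as a whole, so that orders across the tissues carry this difference as well.

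Genes around the 10 on the same pathways were read from lists. The counts of every list are to be read against the shares of all genes called. In muscle these were 10.9% lower and 11.6% higher as deposited, and 14.8% and 13.8% after quantile normalization. In heart they were 49.0% lower and 1.99% higher as deposited, and 17.9% and 13.9% after quantile normalization. Of 6 measured genes of reductase and thymidylate synthesis beside the members, 2 were lower and none higher in *Tk2*-/- muscle. *Dctd*, the deaminase that turns dCMP into dUMP, had 65.53, 39.02 and 45.97 in *Tk2*-/- muscle and 222.44, 173.63 and 149.28 in *Tk2*+/+ muscle. In heart it had 16.86, 29.10 and 18.76 in *Tk2*-/- mice and 136.26, 83.90 and 82.48 in *Tk2*+/+ mice. Its log2 fold change was -1.58 in muscle (adjusted p = 3.30e-05) and -1.62 in heart (adjusted p = 7.94e-06) (-1.33 after quantile normalization). The muscle value was close to the -1.50 of *Nt5c1a*, the lowest of the 10 genes. *Nt5c1a* lay near the offset in *Tk2*-/- muscle and its change is understated, so that their order is not settled. *Dut*, whose product removes dUTP and forms dUMP, fell by 0.72 in muscle and by 1.24 in heart, where quantile normalization gave -0.81. After that normalization 3 of the 6 were lower in muscle, and in heart 5 were lower as deposited and 3 after it.

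Of 7 genes of mitochondrial deoxynucleoside salvage, *Slc25a33*, a pyrimidine nucleotide carrier of the inner membrane, was the 1 that rose in *Tk2*-/- muscle, with 126.13, 181.35 and 128.22 against 65.71, 97.85 and 71.51 in *Tk2*+/+ muscle, a log2 fold change of 0.77 (adjusted p = 0.00254). As deposited 0 of the 7 were called lower in muscle with limma (3 at an unadjusted p under 0.05), and 3 were called lower after quantile normalization. In heart 6 of 7 were lower as deposited, and 2 after quantile normalization. *Nt5m*, a mitochondrial deoxynucleotidase, was at -0.73 in heart as deposited and at -0.13 after normalization, where it did not pass (adjusted p = 0.356). Of 9 nucleoside mono- and diphosphate kinases, 1 was lower in muscle as deposited (*Nme1*, -0.71) and 4 after quantile normalization, and in heart 9 were lower as deposited and 4 after it. *Nme1* gave -1.69 in heart and *Nme3* -1.50, which became -1.09 and -0.87. Of 9 other 5′-nucleotidases and ectonucleotidases, 0 were called in muscle with limma (1 at an unadjusted p under 0.05) and 1 was lower after quantile normalization. In heart 4 were lower as deposited, with *Entpd5* at -1.08 and *Nt5c3b* at -0.79. After quantile normalization 2 were higher and 0 lower, and these genes were at -0.41 and -0.12 and did not pass.

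Of 11 nucleoside phosphorylases, deaminases and kinases, *Ampd3*, an AMP deaminase, rose in *Tk2*-/- muscle by 1.29 on the log2 scale, to 442.14, 351.43 and 263.41 against 116.01, 155.48 and 125.92 in *Tk2*+/+ muscle (adjusted p = 3.65e-05). *Ampd1*, the main AMP deaminase of skeletal muscle fibres, fell by 0.93 there (adjusted p = 0.00736). In heart 8 of the 11 were lower as deposited, and 1 was lower and 1 higher after quantile normalization. *Uck2*, a uridine-cytidine kinase, was at -1.45 in heart as deposited and at -0.77 after it, and *Ampd3* at -0.93 and -0.24. Among 6 nucleoside carriers of the plasma membrane, *Slc28a2* fell by 0.59 in muscle, where 2 were lower after quantile normalization. In heart 4 of the carriers were lower as deposited and 1 after it, *Slc29a1*, an equilibrative carrier, at -1.06 and -0.38. Of 5 genes of pyrimidine synthesis from small precursors, *Ctps2*, a CTP synthase, rose by 0.75 and *Umps*, which forms UMP, fell by 0.58 in muscle, where 2 were higher and 1 lower after quantile normalization. In heart 5 were lower as deposited, with *Ctps* at -0.92 and *Umps* at -0.86, and 3 after it, with these at -0.27 and -0.53. Of 12 genes of purine synthesis and base salvage, *Aprt* and *Gart* rose in muscle by 0.44 and 0.33, where 2 were higher and 1 lower after quantile normalization. In heart 12 were lower as deposited, with *Ppat* at -1.05 and *Adsl* at -0.98, and 3 were lower and 1 higher after it, with these at -0.44 and -0.30.

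Of 10 target genes of p53, 7 rose and 1 fell in *Tk2*-/- muscle, with a median log2 fold change of 0.82, and 7 rose and 2 fell after quantile normalization. Among all genes 11.6% rose and 10.9% fell in muscle as deposited, and 13.8% and 14.8% after it. *Cdkn1a*, the inhibitor of cyclin-dependent kinases p21, averaged 2592 ± 145.3 in *Tk2*-/- muscle and 562.9 ± 26.8 in *Tk2*+/+ muscle (adjusted p = 2.02e-07), and *Ddit4*, *Sesn1* and *Gadd45a* rose by 3.03, 2.07 and 1.18 on the log2 scale. In heart 3 were higher and 4 lower as deposited, with a median of -0.16, while 4 were higher and 2 lower after quantile normalization, with a median of 0.31. Among all genes 1.99% were higher and 49.0% lower in heart as deposited, and 13.9% and 17.9% after it. As deposited *Sesn1* was at 1.02, *Ddit4* at 0.87, *Ccng1* at -1.09 and *Mdm2* at -0.83 in heart. After normalization they were at 1.66, 1.55, -0.54 and -0.14, and *Mdm2* did not pass (adjusted p = 0.274). Several p53 targets and cell cycle genes and most of the 10 members had been picked out by the study on the same arrays, so that their counts are not independent evidence.

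For *Rrm2*, *Tk1*, *Nt5c1a* and *Dpyd* the genes most like them over the 4 groups were sought, by the root mean square difference of the centred log2 group means among 9265 genes with a mean signal above 64. *Rrm2*, with a range of 1.89 between its group means, was followed most closely by *Mylk4*, *Spryd7* and *Hk2*, at 0.09 to 0.12. *Dpyd* was followed by *Etfbkmt*, *Foxo3* and *Fas*, at 0.07 to 0.10, and *Tk1* by *Ankrd34a*, *Lrrc75a* and *Snx32*, at 0.02 to 0.03 with a range of 0.84. No gene came as close to *Nt5c1a*, for which *Scrn1*, *Emilin2* and *Fbxl22* were at 0.23 to 0.26 with a range of 2.85. *Mylk4* had log2 fold changes of 0.29 in muscle and -1.71 in heart. With 4 group means the measure rests on few points.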

How the data were processed

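RNA from hind limb skeletal muscle and heart was hybridised by the authors to 12 Affymetrix Mouse Gene 1.1 ST arrays after isolation with the RNeasy kit and labelling with the Ambion WT Expression kit. The deposited values are 1 intensity per probe set and array on a linear scale, called signal here. Affymetrix Expression Console with the PLIER algorithm is named by the submitters' processing notes, with no version, and the procedure behind the normalization that the methods mention is not given in what was read here. Values of 0 occurred 2258 times, and the number of arrays limits the precision.

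Of 35556 probe sets, 21218 carried 1 gene symbol, 1881 several and 12457 none. An offset of 16 was added before log2 was taken, which understates the change of a dim gene. Means of the 4 groups were fitted with limma 3.58.1 in R 4.3.3 over 18820 genes (8 residual degrees of freedom), with 2-sided tests at a threshold of 0.05 after Benjamini-Hochberg adjustment across these genes. The methods of the study used a t-test with a fold minimum and no stated adjustment, which was run as an alternative. SE and 95% intervals come from this fit and are not adjusted. The fit was tested on simulated data. The members and lists were chosen with earlier results of these data known, among them a figure of the study made from these arrays. Named genes are the members, *Tk2*, *Rrm2b*, from each other list up to 2 genes of largest change that passed the test in a tissue (up to 4 for S phase and p53 lists) and the 3 genes most like each of 4 members. *Pcna*, *Mcm3*, *Mcm4*, the cell type markers and genes after *Dpyd* were named after their values were seen.

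Alternatives were 5 other scalings, an offset of 1, a filter on dim genes, the mean of a gene's probe sets, other priors and weights, separate fits, replicate blocks, the methods' t-test and leaving out each array. Figures were drawn with Python 3.11.15 and matplotlib 3.10.9.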

Additional observations from a re-analysis of the deposited data

Results flagged for a closer look

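The genotype effect differed between skeletal muscle and heart, by the test of the difference itself, for 4 of the 10 genes as deposited. For *Rrm2* the muscle effect minus the heart effect was 2.27 on the log2 scale (adjusted p = 0.00066), and it was 1.85 after quantile normalization within each tissue (adjusted p = 0.0137). Both *Rrm2* values rest on 1 probe set. The decrease of *Rrm2* in skeletal muscle that the study reported was not found here. For *Rrm1* the difference was 0.68 (adjusted p = 0.0408), for *Cda* 0.60 (adjusted p = 0.0344) and for *Dck* 0.49 (adjusted p = 0.0464). After quantile normalization these became 0.07 for *Rrm1* (adjusted p = 0.864), 0.35 for *Cda* (adjusted p = 0.231) and 0.28 for *Dck* (adjusted p = 0.311). The median difference over all genes was 0.30 as deposited, and *Tk2*-/- heart arrays had a mean signal of 146.7 to 168.4, against 227.4 to 242.6 in *Tk2*+/+ heart. Its part in these differences was not tested beyond the scalings.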

How the results depend on the processing

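For *Dpyd*, *Nt5e*, *Rrm2*, *Dck*, *Rrm1*, *Dtymk*, *Nt5c1a* and *Cda* the heart calls held under all 26 alternatives that give a value per gene. The muscle calls of *Dck*, *Rrm1*, *Dtymk*, *Nt5c1a*, *Cda* and *Nt5c3* held under all but the methods' t-test after Benjamini-Hochberg adjustment, and that of *Dpyd* under all (the methods' fold minimum gave counts alone). With that t-test 1 gene was higher and 0 lower in muscle, where over all genes limma made 2179 and 2050 calls and the t-test 366 and 294. At the methods' fold of 2 and unadjusted p, 1 was higher and 1 lower in muscle and 0 higher in heart, so that most of these muscle calls and the higher calls in heart were lost there. The difference between the tissues was called higher in muscle for 1 gene (*Rrm2*) under all 5 scalings and for 1 to 4 genes, not the same ones, when 1 array was left out, with 1 without *Tk2*+/+ muscle replicate 3 or *Tk2*+/+ heart replicate 1 and 2 without any 1 *Tk2*-/- muscle array or *Tk2*-/- heart replicate 1 or 3. It was called lower for 1 gene (*Nt5e*) under quantile normalization within each tissue or over 12 arrays, upper-quartile scaling and cyclic loess. Of all 18820 genes, within-tissue quantile normalization called this difference higher for 1129 and lower for 855, and that over 12 arrays for 1106 and 829. Median centring gave 6130 and 804, upper-quartile scaling 1144 and 2831, and cyclic loess 1013 and 848. With 1 array left out, 6739 to 8071 genes were called higher. *Tk2*+/+ muscle against heart had 2 higher calls under within-tissue quantile normalization and 3 under cyclic loess, and 0 to 2 when 1 array was left out. Of all 18820 genes, 9329, 9962 and 4119 to 5897 were called higher in these settings, in the same order. *Tk2*-/- muscle against heart had 2 higher calls under median centring or upper-quartile scaling and 5 lower under quantile normalization over 12 arrays. Over all genes these settings gave 4253 and 3396 higher calls and 3540 lower calls. Arrays of equal replicate number showed little shared deviation (r of deviations from the group means -0.189 to 0.128 between genotypes of a tissue and -0.193 to 0.098 between tissues of a genotype, 6 pairs each). The labels do not tie these numbers to mice, so that a pairing of the tissues by animal could not be tested. The main fit treats the 12 arrays as independent, also in the comparisons between the tissues, although the tissues share animals. With the replicate block the counts were 3 higher and 5 lower in muscle and 3 higher and 7 lower in heart, and no other call changed beside 1 more for *Tk2*-/- muscle against heart (5 higher). *Tk1* passed in muscle with each tissue fitted alone, array weights or without *Tk2*+/+ heart replicate 1 (adjusted p = 0.0258 to 0.0452). Over all genes in heart, 375 higher and 9229 lower calls became 2609 and 3363 with within-tissue quantile normalization, 2682 and 3397 with that over 12 arrays, 2593 and 3215 with cyclic loess, 2597 and 7147 with median centring, 6768 and 2747 with upper-quartile scaling, and 1561 and 9833 with array weights. At the methods' fold of 2 there were 38 and 1770, and 312 and 329 in muscle. The causes were not tested. With 3 arrays a group, and signals near the offset for *Tk1*, *Dck* and *Cda* in *Tk2*-/- heart and *Nt5c1a* in *Tk2*-/- muscle, the size of these changes is limited in precision.

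Some values that did not pass the test changed sign. The difference between the tissues became, under within-tissue quantile normalization, quantile normalization over 12 arrays, upper-quartile scaling and cyclic loess in this order, -0.21, -0.23, -0.22 and -0.25 for *Dtymk*, -0.41, -0.43, -0.43 and -0.44 for *Nt5c1a*, -0.38, -0.41, -0.30 and -0.40 for *Nt5c3*, and -0.03, -0.04, -0.31 and -0.05 for *Tk1*. For *Dpyd* it became -0.01, -0.18 and -0.0025 under within-tissue quantile normalization, upper-quartile scaling and cyclic loess, and for *Nt5c1a* -0.20 with an offset of 1. For *Tk2*+/+ muscle against heart, within-tissue quantile normalization and cyclic loess gave 0.08 and 0.06 for *Cda*, 0.03 and 0.08 for *Dtymk*, and 0.28 and 0.36 for *Nt5c3*. Both settings scale each tissue alone, so that the tissues are not put on the same scale by them. The median of this comparison over all genes was 0.23 and 0.25 under them, against 0.12 as deposited. *Nt5c3* also gave 0.05 and 0.03 under quantile normalization over 12 arrays and upper-quartile scaling, and median centring gave -0.08 for *Dck* and -0.01 for *Tk1*. *Rrm2b* in muscle became 0.04, 0.04, 0.03 and 0.03 under quantile normalization within each tissue and over 12 arrays, median centring and cyclic loess. When 1 array was left out, *Tk2*+/+ muscle against heart gave -0.31 to 0.01 for *Cda*, -0.23 to 0.09 for *Nt5c3* and -0.65 to 0.07 for *Rrm2* (the last without *Tk2*+/+ heart replicate 1), the difference between the tissues gave -0.09 to 0.35 for *Nt5c1a* and -0.08 to 0.34 for *Tk1*, and *Rrm2b* in muscle gave -0.17 to 0.08.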
